A study of Mus musculus with 38 samples.

Results

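The 10 genes described here encode 6 ligands (Tnf, Tnfsf9, Tnfsf12, Tnfsf13, Tnfsf13b and Tnfsf14) and 4 receptors (Tnfrsf1a, Tnfrsf1b, Tnfrsf11a and Tnfrsf21) of the tumour necrosis factor (TNF) superfamily. They were listed by symbol, with earlier results of these data known, and are 10 of the 43346 genes in the deposited count table. Each was followed over 4 macrophage populations sorted from lungs of untreated C57BL/6 mice aged 8 to 10 weeks. Of the 3 interstitial populations, IM3 was sorted as MHC class II high and CD206 low, IM2 as high for both proteins, and IM1 as MHC class II low and CD206 high. All 3 were enriched for the phagocyte receptor MerTK and carried CD64 and CD11b, and the labels give IM3 as positive and IM1 and IM2 as low for CD11c. Alveolar macrophages (AM) were CD11c and Siglec F positive and lacked CD11b. Cells carrying B220, CD3 or NK1.1 were gated out of every sort. Each population had 3 libraries, A, B and C, and no label says whether these came from separate mice or from pools, so the p-values rest on a library-to-library spread that may be technical.

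Ligands of this superfamily are mostly trimers that sit on the cell surface or are cut from it, and each binds 1 or a few receptors on neighbouring cells. The receptors pass the signal through adaptor proteins of the TRAF family, or through a death domain inside the cell, to the NF-kB transcription factors or to cell death. Macrophages are a main source of TNF itself and also make BAFF, the product of Tnfsf13b, on which B cells depend for survival. In bone the receptor RANK, the product of Tnfrsf11a, turns macrophage precursors into osteoclasts.

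The 12 libraries held 11818981 to 15758326 reads assigned to genes, so that 0 reads in a library allowed up to 0.254 CPM (reads scaled to a common library total) in the shallowest one. Gene levels below are CPM scaled by the TMM method, which corrects for differences in library composition, and sums over marker lists are plain CPM of assigned reads. Marker genes matched the sorts: 8 alveolar markers summed to 181 to 606 CPM in the interstitial libraries and 47200 to 54900 CPM in AM, and 7 interstitial markers summed to 16900 to 41800 CPM in the interstitial libraries and 16.6 to 21.8 CPM in AM. Of 5 neutrophil markers, Ly6g was at 0 in every library and the sum was at most 1.87 CPM. Among the IM1 libraries, A had the lowest Tnfrsf1b, Tnfrsf11a and Tnfrsf21 and the highest Tnf, and calls of members that change without it are given with their results. Trac, a T cell receptor constant gene, ranged over 0 to 4070 CPM between libraries of IM1, whereas Cd3d, Cd3e and Cd3g stayed at or below 0.62 CPM in all 12 libraries.

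All 10 genes passed the filter on low counts, Tnfsf9 only through the interstitial libraries, so its call against AM is a description. Against AM, the mean of the 3 interstitial populations (9 libraries) was higher for 6 genes, Tnf, Tnfsf9, Tnfsf12, Tnfsf13b, Tnfsf14 and Tnfrsf11a, and lower for 2, Tnfrsf1b and Tnfrsf21, at an adjusted p under 0.05 by edgeR's quasi-likelihood test. Tnfsf13 and Tnfrsf1a were not called. The background is wide: 35.9% of all 14095 genes tested were called higher and 28.7% lower in this comparison. The median log2 fold change over all genes tested was 0.1. In bulk samples such as these, more cells of a kind and more RNA per cell cannot be told apart.

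**Figure D1:**
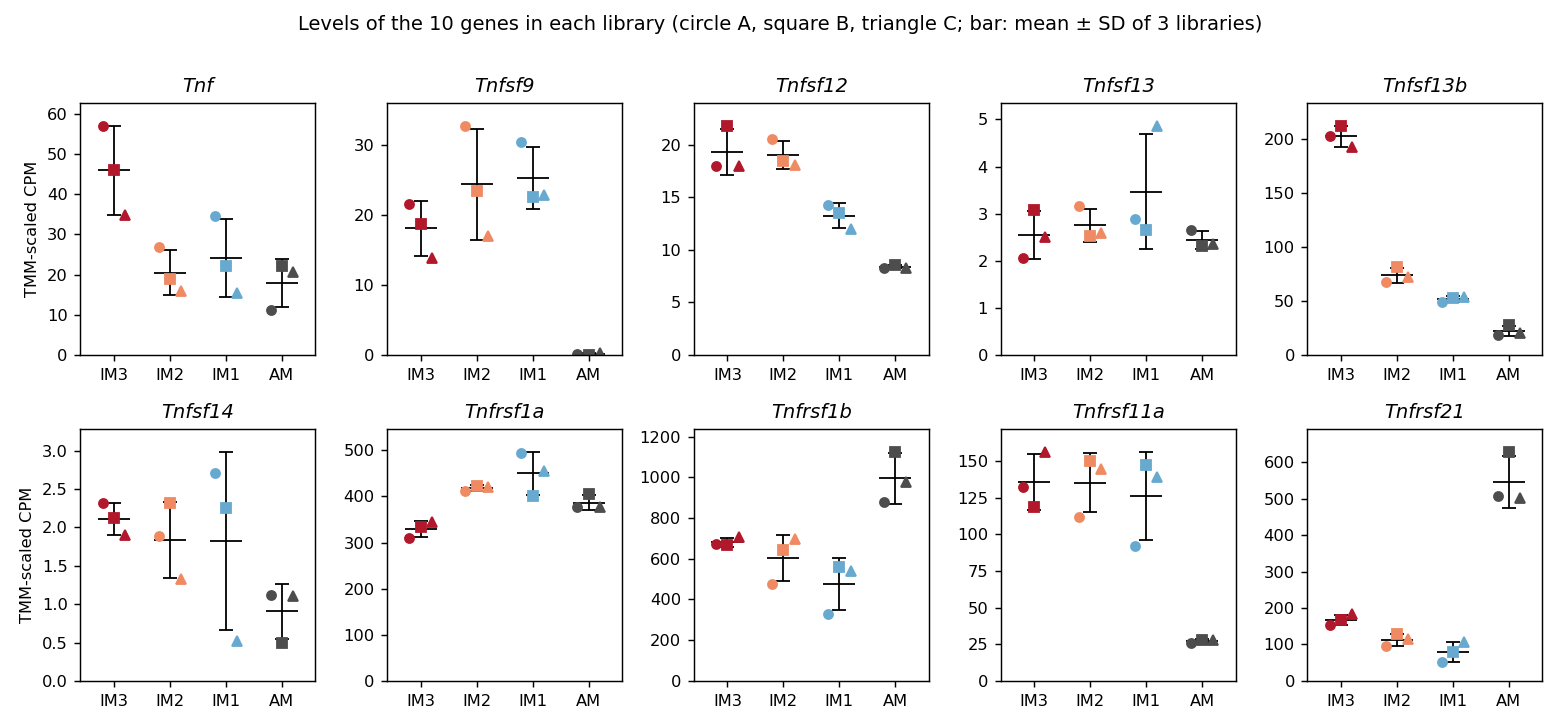
Level of each of the 10 genes (vertical axis, TMM-scaled CPM, each panel with its own scale starting at 0) in the 3 libraries of IM3, IM2, IM1 and AM. Points are single libraries, with circles for A, squares for B and triangles for C, and bars give the mean and SD. Tnfsf9 and Tnfrsf11a were high in every interstitial library and low in AM, Tnfrsf21 and Tnfrsf1b were highest in AM, and Tnfsf13b was highest in IM3.

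The ligand with the widest gap between the compartments was Tnfsf9, which encodes the ligand of the T cell costimulatory receptor CD137. The gene lies on mm10 chromosome 17 (57105325 to 57107757, plus strand). Its level was 21.6, 18.7 and 13.9 CPM in IM3 libraries A, B and C, 32.7, 23.4 and 16.96 CPM in those of IM2, 30.3, 22.6 and 22.8 CPM in those of IM1, and 0.21, 0.0702 and 0.368 CPM in those of AM. Every interstitial library lay far above every AM library, where 3, 1 and 5 reads were counted in libraries A, B and C. The log2 fold change over AM was 6.34 ± 0.41 (SE) for IM3, 6.77 ± 0.41 for IM2 and 6.82 ± 0.41 for IM1, with edgeR adjusted p of 2.37e-09, 8.48e-10 and 7.96e-10. With so few reads in AM, the gene entered the test only through the populations where it is high, so these calls are given as a description. Between interstitial populations Tnfsf9 was not called, although every IM3 library lay below every IM1 library (log2 fold change of IM3 over IM1 -0.48 ± 0.24, adjusted p = 0.169).

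Tnfsf13b was highest in IM3 and lowest in AM. It encodes BAFF, and lies on chromosome 8 (10006467 to 10039072, plus strand). Its level was 204, 212 and 193 CPM in IM3 libraries A, B and C, 67.9, 81.6 and 72.2 CPM in those of IM2, 49.3, 52.7 and 54.04 CPM in those of IM1, and 18.9, 28.1 and 20.1 CPM in those of AM. No 2 populations overlapped. Mean levels were 203 ± 9.72 CPM in IM3, 73.9 ± 7.03 in IM2, 52.0 ± 2.45 in IM1 and 22.3 ± 5.0 in AM (SD, n = 3 each). IM3 exceeded IM2 by a log2 fold change of 1.46 ± 0.15 (SE; edgeR adjusted p = 5.12e-06), IM1 by 1.96 ± 0.15 (adjusted p = 1.4e-07) and AM by 3.18 ± 0.16 (adjusted p = 9.64e-11). IM2 and IM1 did not differ beyond the threshold (0.51 ± 0.15, adjusted p = 0.1), and both were above AM, IM2 by 1.73 ± 0.15 and IM1 by 1.22 ± 0.15 (adjusted p = 7.53e-08 and 3.89e-06). IM2 over IM1 was called by DESeq2 (adjusted p = 0.027), and by edgeR with no filter on low counts (0.043) or without IM1 replicate B (0.0446).

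The order of Tnfsf13b was also that of Ccr2, a chemokine receptor of monocytes, which ranged over 1060 to 1300 CPM in IM3, 339 to 610 in IM2, 43.2 to 93.1 in IM1 and 11 to 14.6 in AM. The monocyte markers Ly6c2 and Plac8 were at or below 3.26 CPM in all 12 libraries. The part of monocyte-derived cells in the Tnfsf13b result was not tested.

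Tnf itself separated IM3 from the other populations. It encodes the founding inflammatory cytokine of the family and lies on chromosome 17 (35199381 to 35202007, minus strand). Its level was 56.9, 45.9 and 34.8 CPM in IM3 libraries A, B and C, 26.8, 18.9 and 15.9 CPM in those of IM2, 34.5, 22.2 and 15.5 CPM in those of IM1, and 11.1, 22.2 and 20.6 CPM in those of AM. Every IM3 library lay above every library of the other populations, by the narrowest margin for IM3 replicate C (34.78 CPM) over IM1 replicate A (34.52 CPM). AM overlapped both IM1 and IM2. IM3 exceeded AM by a log2 fold change of 1.35 ± 0.30 (SE; edgeR adjusted p = 0.00127), and this call held in each of the 12 fits that left out 1 library. IM3 also exceeded IM2 (1.16 ± 0.30, adjusted p = 0.0178) and IM1 (0.94 ± 0.30, adjusted p = 0.0333), whereas IM2 and IM1 were not called against AM (0.19 ± 0.30 and 0.42 ± 0.30, adjusted p = 0.611 and 0.253).

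Several single libraries decided the calls of Tnf between interstitial populations. IM3 over IM2 was no longer called without IM2 replicate B (adjusted p = 0.0684) or C (0.0972), or without IM3 replicate A (0.0914) or B (0.0521). IM3 over IM1 was no longer called without IM1 replicate B (adjusted p = 0.0629) or C (0.123), or without IM3 replicate A (0.13) or B (0.0746), and in limma's voom fit it had an adjusted p of 0.0543. Both calls held in the fit of all libraries with the replicate letter as a block. The log2 fold change stayed between 0.98 and 1.39 for IM3 over IM2 and between 0.70 and 1.28 for IM3 over IM1 in the 12 fits that left out 1 library each. The mean of all interstitial populations over AM (0.65 ± 0.26, adjusted p = 0.0354) lost its call without AM replicate A, when it was 0.40 (adjusted p = 0.219), and without AM replicate C (0.0501), IM2 replicate A (0.0561) or IM3 replicate A (0.059).

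Within the interstitial populations Tnf was highest where immediate early genes were, a group that tissue dissociation can induce. A list of 22 such genes, among them Fos, Jun, Egr1 and Dusp1, summed to 15200 to 22300 CPM of assigned reads in IM3, 13660 to 17070 in IM2, 13640 to 15230 in IM1 and 1104 to 1224 in AM. Of the list, 19 genes were higher and 2 lower in interstitial macrophages than in AM, and 8 were higher and 0 lower in IM3 than in IM1 (5 called without IM3 replicate A). Over all genes tested, 35.9% were called higher and 28.7% lower against AM, and 11.7% and 12.7% in IM3 against IM1. In each interstitial population library A had both the highest Tnf and the highest summed level, and library C the lowest of both. The largest values of both were those of IM3 replicate A (56.92 CPM of Tnf and 22300 CPM summed). Between IM2 and IM1 the orders differed. IM2 had the higher median summed level (15500 CPM, against 14700), whereas mean Tnf was 20.52 CPM in IM2 and 24.08 in IM1 (not called, edgeR adjusted p = 0.72). In AM, library A had the lowest Tnf, 11.14 CPM, with a summed level of 1224 CPM against 1137 CPM in B and 1104 CPM in C. The part of dissociation in the Tnf result was not tested.

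**Figure D2:**
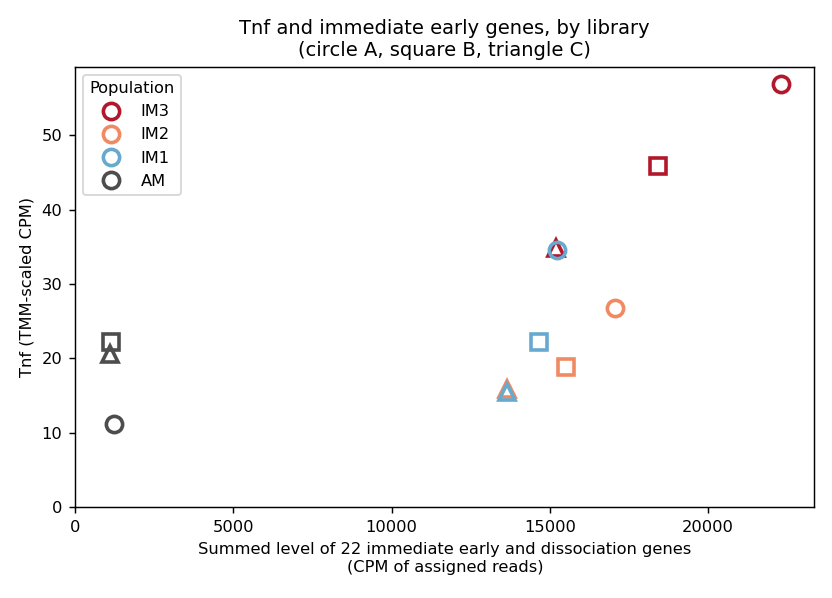
Tnf (vertical axis, TMM-scaled CPM) against the summed level of 22 immediate early and dissociation genes (horizontal axis, CPM of assigned reads), 1 point per library, coloured by population and shaped by replicate letter. The AM libraries stand alone at 1104 to 1224 CPM, and within IM3, IM2 and IM1 the A library lies highest on both axes.

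The 3′ untranslated region of Tnf carries a cluster of AU-rich elements, the letters ATTTA, through which the mRNA is broken down after binding of tristetraprolin, the product of Zfp36. The 30 bases with most copies in the GENCODE M21 transcript (GRCm38, 437 to 466 bases after the stop codon) are shown because tristetraprolin is known to bind such elements, with each ATTTA in capitals.
Tnf AU-rich element (chr17:35199679-35199708, strand -): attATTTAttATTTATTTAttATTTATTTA
This window holds 5 overlapping or adjacent copies. The whole region, 764 bases, holds 8 matches of the longer motif TATTTAT, and 0.0974% of the 12316 tested genes with an annotated 3′ untranslated region have as many or more. At least 1 match was found in 27.3% of those genes. Tnfsf9 had 2 matches in 253 bases, Tnfsf13b had 1 in 3631, Tnfrsf11a had 1 in 3115 and Tnfsf14 had 1 in 1019, while Tnfsf12, Tnfsf13, Tnfrsf1a, Tnfrsf1b and Tnfrsf21 had 0. A match is a description of letters and not evidence of binding.

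Of 10 genes that act on decay of Tnf mRNA, 4 were higher, 1 was lower and 5 were not called in interstitial macrophages against AM, with a median log2 fold change of 0.29. The shares of all genes tested were 35.9% higher and 28.7% lower. Zfp36 averaged 2141 ± 454 CPM in interstitial libraries (SD, n = 9) and 65.18 ± 1.87 in AM (n = 3), a log2 fold change of 5.03 ± 0.20 (edgeR adjusted p = 4.22e-12). Its paralog Zfp36l1 rose by 5.71 ± 0.24 and Rc3h1, which encodes the RNA-binding protein roquin, by 0.63 ± 0.14. Elavl1, whose product HuR binds the same elements, fell by 0.38 on the log2 scale (adjusted p = 0.00162). Within the interstitial populations, IM3 had more Zc3h12a (the RNase regnase-1; 64.5 CPM in IM3 and 16.79 in IM1) and more Zfp36l2 (471.2 CPM in IM3 and 189.0 in IM1) than IM1, with log2 fold changes of 1.93 and 1.32 and adjusted p of 0.000415 and 0.000595. Zfp36 itself belongs to the immediate early genes above and did not pass the test between IM3 and IM1 (0.38, adjusted p = 0.134), and 2 in place of 4 genes of the list were called between IM3 and IM1 without IM1 replicate A or without IM3 replicate B. Over all genes tested, 11.7% were called higher and 12.7% lower in IM3 than in IM1.

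Tnfsf12 and Tnfsf13 lie 466 bases apart on chromosome 11, both on the minus strand (69686250 to 69695849 and 69682846 to 69685784). They encode TWEAK and APRIL. A joint gene, Tnfsfm13, shares exons with both: 731 of the 1515 exon bases of Tnfsf12 (48.3%) and 983 of the 1637 of Tnfsf13 (60.0%) are also exons of it, and the antisense gene Tnfsf13os overlaps 221 bases of Tnfsf13. Reads that fell on 2 genes were not counted, so the counts of both come from the remaining bases and their levels are too low by an unknown amount. Tnfsfm13 itself had 3 to 17 reads per library.

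**Figure D3:**
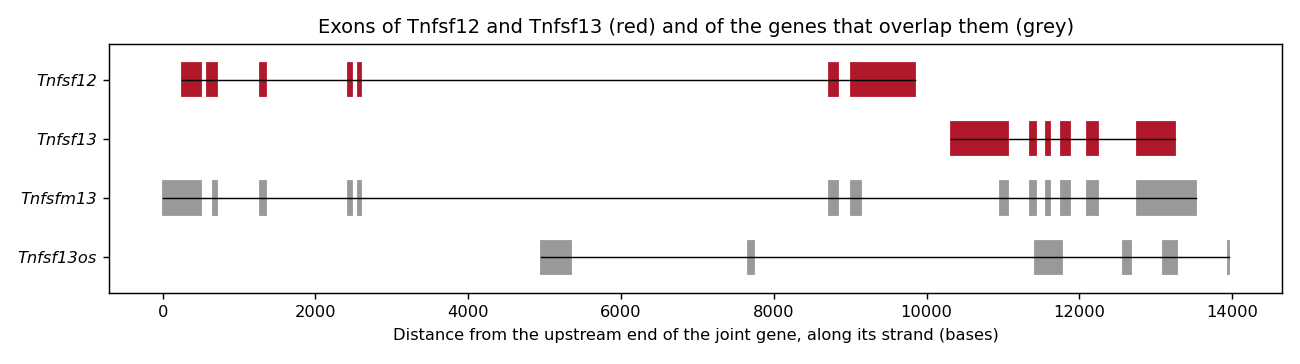
Exons (boxes) of Tnfsf12 and Tnfsf13 in red and of the overlapping genes Tnfsfm13 and Tnfsf13os in grey, by distance in bases along the strand of the joint gene. The joint gene shares 731 exon bases with Tnfsf12 and 983 with Tnfsf13.

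Tnfsf12, counted from its own bases, had 18, 21.8 and 18 CPM in IM3 libraries A, B and C, 20.6, 18.4 and 18.04 CPM in those of IM2, 14.2, 13.5 and 11.9 CPM in those of IM1, and 8.27, 8.56 and 8.32 CPM in those of AM. AM was lowest and tight, IM1 intermediate, and IM2 and IM3 overlapped at the top, with no overlap between these 3 steps. The log2 fold change over AM was 1.2 ± 0.16 (SE) for IM3, 1.18 ± 0.16 for IM2 and 0.66 ± 0.16 for IM1 (edgeR adjusted p = 8.28e-06, 8.99e-06 and 0.00216). IM3 exceeded IM1 by 0.54 ± 0.15 (adjusted p = 0.0175), a call that was lost without IM1 replicate C (0.47, adjusted p = 0.07) or IM3 replicate B (0.45, adjusted p = 0.0877), with no filter on low counts (adjusted p = 0.0616), in limma's voom fit (0.0558) and with only the 2 populations in the fit (0.0703). IM2 over IM1 was not called by edgeR (0.52 ± 0.15, adjusted p = 0.109), whereas DESeq2 called it (adjusted p = 0.027). Tnfrsf12a, which encodes the TWEAK receptor, averaged 12.23 CPM in IM3, 8.165 in IM2, 10.18 in IM1 and 8.462 in AM and was not called in interstitial macrophages against AM (0.24 ± 0.20, adjusted p = 0.301).

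Tnfsf13 was low everywhere, with 2.05, 3.08 and 2.5 CPM in IM3 libraries A, B and C, 3.16, 2.52 and 2.59 CPM in those of IM2, 2.88, 2.65 and 4.87 CPM in those of IM1, and 2.66, 2.32 and 2.36 CPM in those of AM. All 4 populations overlapped, and IM1 replicate C alone reached 4.87 CPM. The gene was not called in any of the 7 comparisons by edgeR, with log2 fold changes over AM of 0.05 ± 0.31 for IM3, 0.17 ± 0.31 for IM2 and 0.51 ± 0.31 for IM1 (adjusted p = 0.893, 0.658 and 0.172). Its counts were 31 to 75 reads per library.

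Tnfsf14, which encodes LIGHT, a ligand of HVEM and of the lymphotoxin beta receptor, was counted with few reads (chromosome 17, 57189492 to 57194177, minus strand, 81.7 kb from Tnfsf9). It had 2.32, 2.13 and 1.9 CPM in IM3 libraries A, B and C, 1.88, 2.31 and 1.32 CPM in those of IM2, 2.71, 2.25 and 0.519 CPM in those of IM1, and 1.12, 0.491 and 1.1 CPM in those of AM. These levels rest on 7 to 35 reads per library. IM3 and IM2 lay above AM in every library, whereas IM1 replicate C, at 0.519 CPM, lay within the AM range. The mean of the interstitial populations exceeded AM by 1.07 ± 0.45 (edgeR adjusted p = 0.0466), a call that was lost in 10 of the 12 fits that left out 1 library and with the replicate block (adjusted p = 0.0514). It held without IM1 replicate C and without IM2 replicate C. None of IM3, IM2 and IM1 was called alone against AM by edgeR (adjusted p = 0.0567, 0.107 and 0.12, against unadjusted p of 0.0332, 0.0715 and 0.0799), whereas without IM1 replicate C all 3 were called (adjusted p = 0.0169, 0.0396 and 0.0108). IM3 over AM was also called without IM1 replicate A (0.0387), with no filter on low counts (0.0324), with only the populations compared (0.0132), by DESeq2 (0.041) and by limma (0.00854), and limma called IM2 over AM (0.0443).

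The 2 TNF receptors behaved differently across the sorts. Tnfrsf1a, the death domain receptor through which most TNF signals pass, lies on chromosome 6 (125349362 to 125362484, plus strand). Its level was 309.5, 333 and 344 CPM in IM3 libraries A, B and C, 412, 423 and 421 CPM in those of IM2, 495, 400.5 and 455 CPM in those of IM1, and 377, 406 and 376 CPM in those of AM. IM3 lay below all other libraries, and IM1 and AM overlapped. IM3 was lower than IM1 (-0.45 ± 0.11, edgeR adjusted p = 0.00834), a call that held without each single library and was lost when only IM3 and IM1 entered the fit (-0.46, adjusted p = 0.0542). IM3 also lay below IM2 (-0.35 ± 0.11, adjusted p = 0.0604) and AM (-0.23 ± 0.11, adjusted p = 0.0896) without passing the threshold in edgeR, whereas DESeq2 gave adjusted p of 0.00762 and 0.0458 and limma 0.0136 and 0.0176. Both were also called by edgeR without IM1 replicate A (adjusted p = 0.0137 and 0.0353) and with only the populations compared (0.0209 and 0.034), and IM3 over IM2 was called without IM1 replicate B (0.0356). IM1 over AM was 0.22 ± 0.11 (adjusted p = 0.106) and was called without IM1 replicate B (0.30, adjusted p = 0.0376), with upper-quartile scaling (0.0455) and by DESeq2 (0.0466). Over all interstitial populations against AM the log2 fold change was 0.03 ± 0.09 (adjusted p = 0.763).

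Tnfrsf1b encodes the second TNF receptor, which has no death domain and is found mainly on immune and endothelial cells (chromosome 4, 145213463 to 145246870, minus strand). Its level was 670.4, 667 and 707 CPM in IM3 libraries A, B and C, 476, 641 and 694 CPM in those of IM2, 327, 559 and 541 CPM in those of IM1, and 879, 1126 and 978 CPM in those of AM. Every AM library lay above every interstitial library. The log2 fold change over AM was -0.54 ± 0.19 (SE) for IM3, -0.72 ± 0.19 for IM2 and -1.06 ± 0.19 for IM1 (edgeR adjusted p = 0.0212, 0.00371 and 0.000169). The call of IM3 over AM was lost without AM replicate B (-0.45, adjusted p = 0.0898), IM3 replicate A (-0.53, adjusted p = 0.0626) or IM3 replicate B (-0.53, adjusted p = 0.0596). Without IM1 replicate A, in which Tnfrsf1b was lowest, IM1 over AM was -0.86 (adjusted p = 5.08e-05). IM3 over IM1 was 0.52 ± 0.19 (adjusted p = 0.0559) with no overlap between the libraries, and 0.31 (adjusted p = 0.136) without IM1 replicate A. It was called without IM1 replicate B (0.65, adjusted p = 0.0213) or IM2 replicate A (0.0442), with no filter on low counts (0.00545), by DESeq2 (0.0456) and by limma (0.0435).

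Tnfrsf11a, the gene of RANK, was the receptor that rose in interstitial macrophages (chromosome 1, 105780718 to 105847981, plus strand). Its level was 132, 119 and 156 CPM in IM3 libraries A, B and C, 112, 149.7 and 144 CPM in those of IM2, 91.8, 147 and 139 CPM in those of IM1, and 25.9, 27.9 and 27.8 CPM in those of AM. All 9 interstitial libraries lay above AM by a wide margin, and the 3 interstitial populations overlapped. The log2 fold change over AM was 2.32 ± 0.18 (SE) for IM3, 2.31 ± 0.18 for IM2 and 2.21 ± 0.18 for IM1 (edgeR adjusted p = 2.48e-08, 2.26e-08 and 3.88e-08), and 2.39 for IM1 without its replicate A. Between interstitial populations the log2 fold changes were at most 0.11 ± 0.17 in size and none was called. Tnfsf11, which encodes its ligand RANKL, had 0 reads in all 12 libraries, and Tnfrsf11b, the gene of the soluble decoy receptor, averaged at most 0.284 CPM in any population.

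Tnfrsf21 moved the opposite way. It encodes death receptor 6 and lies on chromosome 17 (43016555 to 43089189, plus strand). Its level was 153, 167 and 182 CPM in IM3 libraries A, B and C, 95.9, 128 and 116 CPM in those of IM2, 52.6, 78.9 and 106 CPM in those of IM1, and 508, 629.5 and 503 CPM in those of AM. AM stood far above all interstitial libraries, and among these IM3 was highest and IM1 lowest, with IM2 and IM1 overlapping. The log2 fold change over AM was -1.71 ± 0.20 (SE) for IM3, -2.27 ± 0.21 for IM2 and -2.79 ± 0.21 for IM1 (edgeR adjusted p = 2.76e-06, 1.21e-07 and 1.39e-08). IM3 exceeded IM1 by 1.08 ± 0.20 (adjusted p = 0.000974), and by 0.86 (adjusted p = 0.000431) without IM1 replicate A. IM3 over IM2 was 0.56 ± 0.20 (adjusted p = 0.0865) with no overlap between the libraries, and in the paired fit with the replicate block it was 0.57 and called (adjusted p = 0.0262). It was also called without IM1 replicate A (adjusted p = 0.00631) or C (0.0429), with no filter on low counts (0.00831), with only the populations compared (0.00463) and by limma (0.0133).

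**Figure D4:**
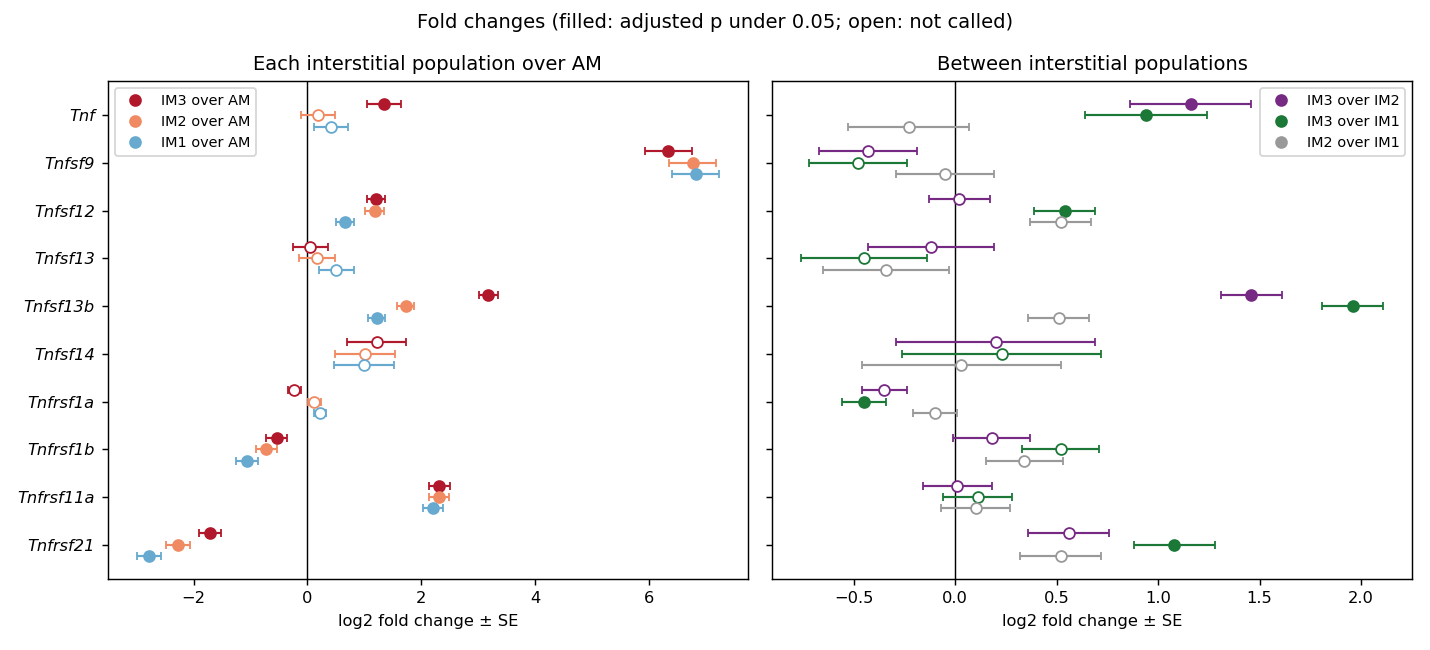
Log2 fold change with its SE (horizontal axis) for each of the 10 genes (vertical axis), on the left for IM3, IM2 and IM1 over AM and on the right between interstitial populations. Filled points have an adjusted p under 0.05 and open points do not. The 3 folds over AM of Tnfrsf11a lie within 2.21 to 2.32, whereas those of Tnfsf13b spread over 1.22 to 3.18.

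Counted by population, 5 members were called higher and 2 lower in IM3 than in AM, where 32.4% of all genes were called higher and 25% lower. In IM2 over AM 4 were higher and 2 lower, against 34.3% and 26.2% of all genes. In IM1 over AM the counts were also 4 and 2, against 33.1% and 25.7%. These 3 comparisons share the AM libraries, and each counts Tnfsf9, which passed the filter only through the interstitial libraries, among the higher. Between IM3 and IM1, 4 members (Tnf, Tnfsf12, Tnfsf13b and Tnfrsf21) were higher and 1 (Tnfrsf1a) lower, where 11.7% of all genes were higher and 12.7% lower. Between IM3 and IM2, 2 members (Tnf and Tnfsf13b) were higher and 0 lower, where 4.94% and 6.49% of all genes were. Between IM2 and IM1, edgeR called 0 members, where 1.22% of all genes were called higher and 0.49% lower, although 3 members had an unadjusted p under 0.05. Single libraries moved these counts: IM3 over IM1 had 3 calls in place of 5 without IM1 replicate C or IM3 replicate B, IM3 over IM2 had 4 in place of 2 without IM1 replicate A and 1 without IM2 replicate B or C or IM3 replicate A or B, and IM2 over IM1 had 1 without IM1 replicate B. Between IM2 and IM1, DESeq2 called 2 members, Tnfsf12 and Tnfsf13b, limma called 0, and the paired fit called 392 genes over all in place of 241.

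Per exon length the members could be set against each other, on the TPM scale, which divides each count by exon length before scaling to a fixed total, except Tnfsf12 and Tnfsf13, whose exons are partly shared with another gene and uncounted. The deposited model of Tnfsf13b has 930 exon bases, fewer than the 3631 bases of its 3′ untranslated region in GENCODE M21, so that its reads and its TPM come from a model without most of that region and its rank against other genes is uncertain. In IM3 the order was Tnfsf13b at 578.7 ± 3.76 TPM (SD, n = 3), Tnfrsf1b at 474.6 ± 36.8, Tnfrsf1a at 337.3 ± 29.3, Tnfrsf21 at 122.9 ± 15.3, Tnf at 74.0 ± 16.2, Tnfrsf11a at 60.5 ± 11.3, Tnfsf9 at 38.8 ± 7.34 and Tnfsf14 at 3.01 ± 0.232. Of these neighbours, only Tnf and Tnfrsf11a overlapped. In IM2 and in IM1 the 2 TNF receptors led and overlapped each other, Tnfrsf1a at 439.6 ± 24.7 and 459.2 ± 45.0 TPM and Tnfrsf1b at 431.9 ± 94.2 and 343.5 ± 140.0 TPM, and Tnfsf13b came next at 216.8 ± 29.7 and 150.2 ± 31.7 TPM. In AM Tnfrsf1b led at 597.9 ± 58.3 TPM, Tnfrsf21 (346.2 ± 34.2) and Tnfrsf1a (342.8 ± 4.28) overlapped, and Tnfsf13b (55.0 ± 10.5), Tnf (25.1 ± 7.98), Tnfrsf11a (10.5 ± 0.401), Tnfsf14 (1.13 ± 0.47) and Tnfsf9 (0.409 ± 0.287) followed.

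**Figure D5:**
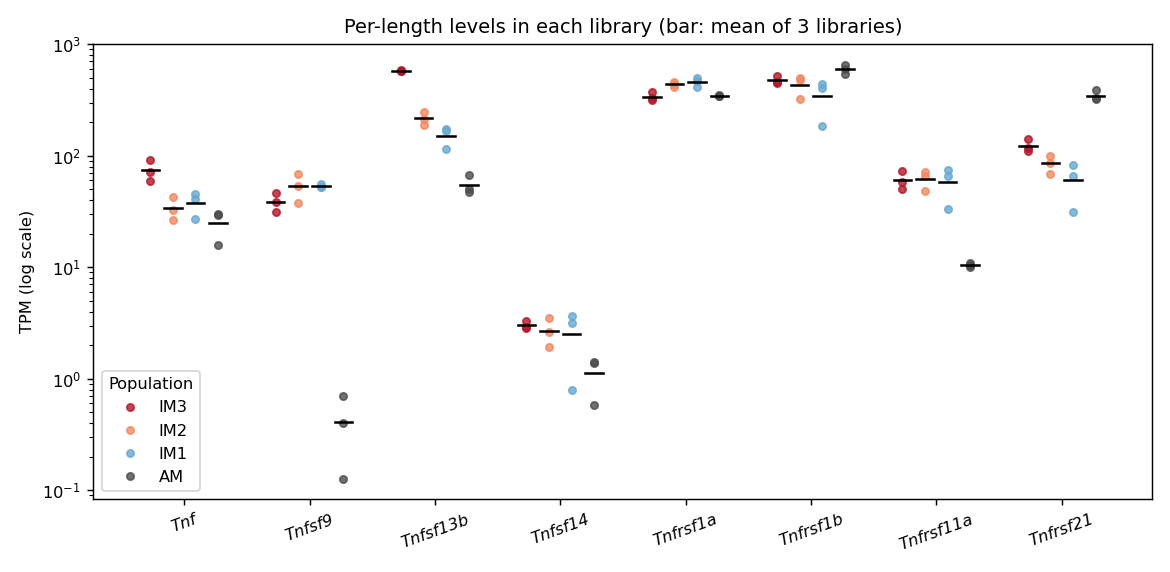
Level per exon length (vertical axis, TPM on a log scale) of 8 members in each library of IM3, IM2, IM1 and AM, with bars at the mean of 3 libraries. Tnfsf13b, whose model leaves out most of its 3′ untranslated region, averages 578.7 TPM in IM3 and 55.0 in AM, and the mean of Tnfrsf1a stays between 337.3 and 459.2.

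Promoters are shown for the 2 ligands that were called higher in IM3 than in each other population and for the 2 receptors with the largest opposite changes against AM. The letters are the 250 bases before the RefSeq transcription start in GRCm38.p6, 5′ to 3′ on the gene's strand, and capitals mark matches on either strand of TGANTCA (AP-1), TATAAA (core promoter), GGGCGG (GC box), GAGGAA (PU.1, a factor of macrophages) or the NF-kB consensus.
Tnf (chr17:35202008-35202257, strand -): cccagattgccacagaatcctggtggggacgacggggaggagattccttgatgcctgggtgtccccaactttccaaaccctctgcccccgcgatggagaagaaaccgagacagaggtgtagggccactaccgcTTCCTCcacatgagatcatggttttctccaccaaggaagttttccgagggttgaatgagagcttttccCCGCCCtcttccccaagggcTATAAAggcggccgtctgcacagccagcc
Tnfsf13b (chr8:10006217-10006466, strand +): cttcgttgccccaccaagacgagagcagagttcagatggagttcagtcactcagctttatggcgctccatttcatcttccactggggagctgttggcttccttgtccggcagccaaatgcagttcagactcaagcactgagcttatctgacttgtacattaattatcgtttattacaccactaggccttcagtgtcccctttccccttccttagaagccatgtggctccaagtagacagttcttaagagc
Tnfrsf11a (chr1:105780473-105780722, strand +): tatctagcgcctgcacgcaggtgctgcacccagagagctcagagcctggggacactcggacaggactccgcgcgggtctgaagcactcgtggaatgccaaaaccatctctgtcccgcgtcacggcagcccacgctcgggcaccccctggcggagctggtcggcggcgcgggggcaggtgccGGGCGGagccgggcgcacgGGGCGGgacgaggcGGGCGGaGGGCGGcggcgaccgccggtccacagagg
Tnfrsf21 (chr17:43016305-43016554, strand +): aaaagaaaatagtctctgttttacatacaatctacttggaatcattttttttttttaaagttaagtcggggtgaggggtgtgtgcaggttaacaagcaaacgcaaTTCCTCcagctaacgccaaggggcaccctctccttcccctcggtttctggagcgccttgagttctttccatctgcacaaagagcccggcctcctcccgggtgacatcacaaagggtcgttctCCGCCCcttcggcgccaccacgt
Tnf had TATAAA starting 29 bases before the start, a GC box at 49 and GAGGAA on the other strand at 117. Tnfrsf11a had 4 GC boxes and no other match, and Tnfrsf21 had a GC box at 23 bases and GAGGAA on the other strand at 145. Tnfsf13b had none of the 5 motifs in this window. Over all 32841 promoters of the table, 12.4% held TATAAA, 32.7% GGGCGG, 23.3% GAGGAA, 6.75% TGANTCA and 7.25% the NF-kB consensus. Of the 8 members with a promoter in the table, Tnfsf13 and Tnfsf14 each held 1 TGANTCA and none held the NF-kB consensus.

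Beyond the 10 members, 5 of 12 other ligand genes passed the filter, and all 5 were called higher in interstitial macrophages than in AM (3 without AM replicate A). Genes that pass only through the population where they are high must differ, so this count is given as a description. Over all genes tested, 35.9% were called higher and 28.7% lower. Tnfsf8, the gene of CD30 ligand, averaged 8.70 CPM in IM3, 3.02 in IM2 and 1.04 in IM1, with 1 read in all AM libraries, a ratio of 181 for interstitial macrophages over AM (95% exact binomial interval 32.4 to 7170). It was higher in IM3 than in IM1 by a log2 fold change of 3.07 (edgeR adjusted p = 4.83e-06). Eda, the gene of ectodysplasin, had 0 reads in AM, and against a limit of 3 reads over the group its interstitial level was at least 24-fold higher, and Ltb rose by 3.05 ± 0.69 at a low level (0.8607 CPM in interstitial libraries and 0.09704 CPM in AM). Eda and Tnfsf15 were lower in IM3 than in IM1 (log2 fold changes of -2.03 and -2.30, adjusted p = 0.0153 and 0.00891). Fibroblast markers summed to 32 to 116 CPM in interstitial libraries and at most 0.327 CPM in AM, and their part in the level of Eda was not tested.

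Among 24 other receptor genes, 20 passed the filter, of which 7 were higher, 7 lower and 6 not called in interstitial macrophages against AM (median log2 fold change -0.07). Tnfrsf13c, Tnfrsf14, Tnfrsf17, Tnfrsf19 and Tnfrsf25, all among the higher, had at most 2 reads in all AM libraries together. They passed the filter only through interstitial libraries and must differ, so this count is given as a description. The shares of all genes tested were 35.9% higher and 28.7% lower. Cd40, a costimulatory receptor of antigen-presenting cells, averaged 50.2 CPM in IM3, 111 in IM2, 115 in IM1 and 0.766 in AM (log2 fold change over AM 6.81 ± 0.23, edgeR adjusted p = 5.59e-13), and it was lower in IM3 than in IM1 (-1.2, adjusted p = 5.16e-05). Tnfrsf25 had 1 read in AM and a ratio of 269 (95% interval 48.1 to 10600), and Tnfrsf19 had 0 reads in AM and was at least 27-fold higher. Tnfrsf19 averaged 1.92 CPM in interstitial libraries, and the part of the fibroblast markers given above in its level was not tested. On the other side, Tnfrsf26 and Tnfrsf23, the second of which encodes a mouse decoy receptor for the ligand TRAIL, fell, with log2 fold changes of -4.49 and -3.5 (1.60 and 3.97 CPM in interstitial macrophages, 35.5 and 44.5 CPM in AM). Tnfrsf18, the gene of GITR, fell by 3.89. Tnfrsf4 was not called (0.09 ± 0.68, adjusted p = 0.912). Relt and Tnfrsf18 were higher in IM3 than in IM1 (1.59 and 2.71, adjusted p = 5.24e-07 and 0.000289), and Tnfrsf25 and Tnfrsf17 were lower (-4.11 and -3.70, adjusted p = 2.17e-05 and 2.67e-05).

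The genes of known receptors of BAFF and APRIL were measured in the same libraries. Tnfrsf13b, the gene of TACI, averaged 99.4 CPM in IM3, 101.9 in IM2, 97.1 in IM1 and 24.4 in AM, a log2 fold change of 2.03 ± 0.13 over AM (edgeR adjusted p = 1.87e-09). Unlike Tnfsf13b it showed no difference past the threshold between IM3 and IM1 (0.03, adjusted p = 0.892). Tnfrsf17, the gene of BCMA, averaged 0.998 CPM in IM3, 9.25 in IM2 and 13.2 in IM1 and had 2 reads in AM. Tnfrsf13c, the gene of the BAFF receptor, averaged at most 0.748 CPM. These are also B cell genes: of the B cell markers, Cd79b ranged over 32.7 to 66.2 CPM in the interstitial libraries and had 0 reads in AM, Cd79a and Ms4a1 were at or below 1.69 CPM and Pax5 was at 0 in all 12 libraries. The list summed to 33.4 to 66.2 CPM in interstitial libraries and 0.0693 to 1.44 CPM in AM, and the part of B cells in these levels was not tested.

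Of 31 adaptor and signalling genes, 12 were higher, 9 lower and 10 not called in interstitial macrophages against AM (median log2 fold change 0.02). These counts stand beside 35.9% of all genes tested called higher and 28.7% lower, and are close to those shares. Traf1, an adaptor that binds Tnfrsf1b and is itself induced by NF-kB, averaged 36.6 CPM in the 9 interstitial libraries and had 4 reads in all in AM, for a log2 fold change of 8.45 ± 0.24 (edgeR adjusted p = 8.56e-14). Birc3, which encodes the ubiquitin ligase cIAP2, rose by 2.22 ± 0.11 and Tab2 by 1.62 ± 0.18. Mlkl, the executor of necroptosis, fell by 1.18, Ikbkg by 0.90 and Tradd, the adaptor of Tnfrsf1a, by 0.89 on the log2 scale. In IM3 over IM1, Ripk3 and Map3k14 (the kinase NIK) rose by 1.31 and 1.08 and Cflar, an inhibitor of caspase 8, fell by 0.60 (adjusted p = 0.000129, 0.0014 and 0.000701), while Casp8 had 131.3 CPM in IM3 and 130.8 in IM1.

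Among NF-kB subunits, their inhibitors and known TNF response genes, 28 of 29 passed the filter, with 21 higher, 4 lower and 3 not called in interstitial macrophages against AM (median log2 fold change 1.3). These counts stand beside 35.9% of all genes tested called higher and 28.7% lower. Vcam1, an adhesion molecule, rose by 8.83 ± 0.33 (416 CPM in interstitial macrophages and 0.836 in AM), the chemokine gene Ccl2 by 7.80 ± 0.39 and Nfkbiz by 6.39 ± 0.36, with edgeR adjusted p of 1.92e-12, 6.22e-11 and 2.76e-10. Tnfaip2, Sod2 and Tnip1 went the other way (-3.92, -1.46 and -0.91). Nfkbib, an inhibitor of NF-kB, had 38.4 CPM in interstitial macrophages and 38.2 in AM. Between IM3 and IM1, where IM3 had the higher Tnf, 6 genes were higher, 5 lower and 17 not called, and the 11 calls became 7 without IM1 replicate C or without IM3 replicate B. The shares of all genes tested were 11.7% higher and 12.7% lower in IM3 than in IM1. Il1b and Cxcl2 were higher in IM3 (392.4 CPM in IM3 and 24.9 in IM1 for Il1b, log2 fold changes 3.97 and 1.31), and Ccl2 and Vcam1 were lower (-1.94 and -1.24), with adjusted p of 2.5e-07, 0.000799, 3.2e-05 and 0.000777. Several of these genes are also induced by tissue dissociation, and that part was not tested.

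Of 11 genes for shedding and processing of ligands and receptors, 4 were higher, 3 lower and 4 not called in interstitial macrophages against AM (median log2 fold change -0.04). Over all genes tested, 35.9% were called higher and 28.7% lower. Adam8, a membrane protease, rose by 5.16 ± 0.27 and was higher in IM3 than in IM1 by 1.54 (edgeR adjusted p = 4.56e-05). Timp3, an inhibitor of the TNF-cutting protease, and Pcsk5 had 0 reads in AM and were at least 252-fold and 20.1-fold higher. Furin, which cleaves BAFF, APRIL and TWEAK, fell by 1.41 on the log2 scale against AM and was higher in IM3 than in IM1 by 1.30 (264 CPM in IM3 and 107 in IM1, adjusted p = 0.00213). Rhbdf2, Frmd8 and Rhbdf1 encode partners of the protease that sheds TNF. Rhbdf2 fell by 0.85 and Frmd8 by 0.44 against AM. Rhbdf1 rose by 2.96 ± 0.12 (75.2 CPM in interstitial libraries and 9.6 in AM, edgeR adjusted p = 5.1e-12). That protease, Adam17, averaged 225.8 CPM in the interstitial libraries, against 269.8 CPM in AM, and was not called (-0.27 ± 0.16, adjusted p = 0.153). In IM1 alone Adam17 was lower than in AM (-0.57 ± 0.20, adjusted p = 0.0246). The fibroblast markers given above were likewise higher in interstitial libraries than in AM. Their part in the levels of Timp3 and Pcsk5 was not tested.

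Of 12 genes tied to osteoclasts, not all of them targets of RANK, 10 passed the filter. Against AM, 5 of these were higher, 4 lower and 1 not called in interstitial macrophages (median log2 fold change 0.39), beside 35.9% and 28.7% of all genes tested. Mmp9, a secreted protease, had 0 reads in AM and averaged 50.03 CPM in IM3, 1631 in IM2 and 1230 in IM1, at least 13500-fold higher in interstitial macrophages. Csf1r, the receptor of the growth factor CSF-1, rose by 3.49 ± 0.15 and Dcstamp, a fusion gene of osteoclasts, by 2.42 ± 0.43 in the mean of the interstitial populations. Dcstamp exceeded AM in IM3 and IM2 (log2 fold changes of 4.23 and 3.01), but not in IM1 (0.01 ± 0.58, edgeR adjusted p = 0.99). It averaged 0.365 CPM in IM1 and 0.359 in AM. The lysosomal protease gene Ctsk, the proton pump subunit gene Atp6v0d2 and Acp5 fell, with log2 fold changes of -7.33, -7.01 and -3.61 (edgeR adjusted p = 1.14e-13, 2.88e-15 and 3.42e-13). Ocstamp averaged 7.95 CPM in IM3, 0.161 in IM2, 0.04325 in IM1 and 0.3098 in AM, and Dcstamp 6.86 CPM in IM3 and 0.365 in IM1.

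Over the 12 libraries, each member's pattern of log2 CPM was set beside those of the 8678 genes with a mean of at least 10 CPM, as a description. For members with a wide gap between AM and the interstitial libraries, it rests mainly on that gap. The closest to Tnfsf13b were Mmp12 (Pearson r = 0.983), with 3034 CPM in IM3, 537.1 in IM2, 206.2 in IM1 and 23.5 in AM, and Plxdc2 (0.982). The closest to Tnf were Bcl2a1b (0.894) and the heat shock gene Hspa1a (0.888), which belongs to the dissociation list. Spred1 (0.996) and Slc44a1 (0.995) were closest to Tnfrsf11a, and Chpf (0.992) and Clec7a (0.991) to Tnfrsf21. Kctd20 had an r of 0.975 with Tnfrsf1b. For Tnfrsf1a the closest were Fh1 (0.957) and Trf (0.946), for Tnfsf9 Myom1 (0.994) and Cpne2 (0.993), and for Tnfsf12 Gpr85 (0.98) and Bcl6 (0.969). For the low genes Tnfsf13 and Tnfsf14 the closest were Mtif2 (0.894) and Psip1 (0.848), and Nsd1 (0.921) and Zfp398 (0.905).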

How the data were processed

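The deposited values are whole-number read counts per gene for 38 sequencing runs, made by the authors with STAR 2.5.1b on mm10 (per the submitters' processing notes) and featureCounts 1.5.0-p1 (per the file headers). Runs of a library were summed to 12 libraries, 3 to 5 runs each, and the sums equalled the deposited table by library in every cell. Reads on more than 1 gene were left uncounted (3.889% to 4.761% of reads per library), and the counting did not use strand. Of 43346 genes, the 14095 that passed edgeR's filterByExpr (minimum count 10) entered 1 quasi-likelihood fit of all 12 libraries in edgeR 4.0.16 (R 4.3.3), with TMM factors and population as the factor, and p-values were adjusted by Benjamini-Hochberg over all of them, with calls at 0.05. The fit was tested on simulated data. TPM used the exon lengths of the deposited table.

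The members and lists were chosen with earlier results of these data known. Where a gene of a list passed the filter only through the interstitial libraries, its call against AM is a description. Beyond all 10 members, genes were named from each list as the largest called changes in each direction (3 for interstitial over AM, 2 for IM3 over IM1) and the smallest change not called. Tnfrsf13b, Tnfrsf13c, Tnfrsf12a, Tnfrsf11b, Tnfsf11 and Adam17 were named as partners of members after their values were seen. Rhbdf1 was likewise named after its values were seen, beside Rhbdf2 and Frmd8. Promoters came from RefSeq (GRCm38.p6) for 8 of the 10 members. The alternatives were upper-quartile scaling, DESeq2 1.42.0, limma 3.58.1 (voom), no filter or a stricter one, only the populations compared, the replicate letter as a block, and leaving out each library. Deviations from population means of same-lettered libraries correlated at 0.256, 0.166 and 0.292 between IM2 and IM1 and at 0.189, 0.143 and 0.163 between IM3 and IM2, so the letters were read as pairs there; over all 18 same-letter pairs the range was -0.122 to 0.292. A few genes of the marker lists and of the comparison of patterns are not reported here.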

Additional observations from a re-analysis of the deposited data

How the results depend on the processing

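Of 1320 values of single members under the alternatives, 1229 kept their direction and their side of the threshold, 38 gained a call, 33 lost one and 20 changed sign, and 403 of 428 counts stayed within 1.5 times. No change of sign touched a called value. With upper-quartile scaling Tnfsf14 in IM2 over IM1 was -0.01, and with only the populations compared Tnfrsf11a in IM3 over IM2 was -0.01. Over the fits that left out 1 library, log2 fold changes that crossed 0 ranged over -0.07 to 0.36 for Tnf and -0.1 to 0.19 for Tnfsf13 (IM2 over AM and IM3 over AM), and in IM2 over IM1 over -0.46 to 0.12 for Tnf, -0.08 to 0.23 for Tnfrsf11a, -0.31 to 0.16 for Tnfsf9 and -0.42 to 0.4 for Tnfsf14. In IM3 over IM1 they ranged over -0.07 to 0.23 for Tnfrsf11a and -0.23 to 0.61 for Tnfsf14, and in IM3 over IM2 over -0.12 to 0.09 for Tnfrsf11a, -0.27 to 0.02 for Tnfsf13 and -0.08 to 0.07 for Tnfsf12. Members called in IM2 over IM1 numbered 2 with DESeq2, 2 with no filter and 0 to 1 without single libraries, against 0. Members called in IM3 over IM2 numbered 4 with limma, 4 with only the populations compared and 1 to 4 without single libraries, against 2. Members called in IM3 over IM1 numbered 3 with only the populations compared and 3 to 6 without single libraries, against 5. With only the populations compared, 4 adaptors and 2 mRNA decay genes were called in IM3 over IM1. Without single libraries the calls in IM3 over IM1 were 4 to 12 adaptors, 2 to 6 decay genes, 2 to 4 other ligands, 7 to 13 NF-kB and response genes and 5 to 10 immediate early genes, and the other ligands called in interstitial macrophages over AM were 3 to 5. The causes of these moves were not tested. Over all genes, IM2 over IM1 had 241 calls, against 591 with DESeq2, 941 with no filter, 93 with limma, 392 with the replicate block and 71 with only these populations in the fit, and IM3 over IM1 had 3445 calls, against 2268 with only these populations. With the replicate block, Tnfrsf1b in IM3 over IM1 was 0.56 and called (adjusted p = 0.00878). Deviations of same-lettered libraries of IM3 and IM1 correlated at 0.0658 for A, -0.122 for B and 0.165 for C, so a pairing there was unclear. Beyond the calls of Tnfsf14 and Tnfrsf21 given with their results, the block changed no other call of a member. Upper-quartile scaling shifted the median of all genes to 0.14 for interstitial macrophages over AM, against 0.1. The members with fewest reads were Tnfsf14 (7 to 35 per library) and Tnfsf13 (31 to 75), apart from Tnfsf9 in AM (1 to 5).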
